A study of Rattus norvegicus with 23 samples.

Results

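The cell cycle genes described here are 48 genes that start, drive or mark cell division, sorted by their role into G1 regulators, S phase genes and mitosis genes. They were read in 23 hearts of newborn Sprague Dawley rats on Affymetrix Rat Gene 1.0 ST arrays, which measure whole transcripts by sets of short probes. A gene was measured where at least 1 probe set carried its symbol as the only symbol, and probe sets of 1 gene were averaged per heart. By this rule 42 of the 48 genes were measured, on 45 probe sets, among 14506 named genes and 28366 features in all. They were all 11 G1 regulators, 8 of 10 S phase genes and 23 of 27 mitosis genes. Mcm3, Mcm4, Mki67, Anln, Cenpe and Cenpf are named only. Rrm1, Rrm2 and Ccnb2 had 2 probe sets each, which correlated over the hearts at r 0.682, 0.996 and 0.999.

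Hearts were taken whole at postnatal day 1, and the labels do not give the sex of a heart (males and females were mixed in each group). All dams ate an assigned diet from at least 28 days before mating through pregnancy and had an injection on gestational day 14. The control group (n = 7) came from dams on control diet given citrate buffer, and the diabetes group (n = 6) from dams on control diet given streptozotocin at 65 mg/kg, which destroys the pancreatic beta cells. The HF diet group (n = 5) came from dams on high fat diet given buffer, and the combination group (n = 5) from dams on high fat diet given streptozotocin. Diabetic dams also received insulin, so their pups were exposed to partly controlled hyperglycaemia. The sample codes of the 23 hearts had 19 stems, of which 3 were shared by several hearts. The 5 HF diet hearts had 3 stems and the 5 combination hearts 3. HF diet hearts 3, 4 and 5 shared a stem, as did combination hearts 1 and 2, and combination hearts 4 and 5. The sources do not say that a stem is a dam or litter. If it is, p-values over hearts measure a spread that lies partly within litters.

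In a dividing cell, D-type cyclins with Cdk4 and Cdk6, and then cyclin E with Cdk2, free E2F factors from the retinoblastoma protein, and E2F switches on the genes of DNA synthesis. Later the factors B-Myb and FoxM1, together with the MuvB complex that binds CHR elements, switch on the genes of mitosis, and cyclin A and cyclin B with Cdk1 carry the cell into division. Cardiomyocytes of the rat still divide at birth and leave the cycle within the days that follow, while fibroblasts, endothelial cells and blood precursors of the heart divide on.

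The 2 later phases carried different letters in their promoters. In the RefSeq promoter table (build GRCr8), 37 of the 48 genes had an entry, and the 250 bases before each start were searched on both strands for 3 motifs. These were the CHR (TTTGAA or TTTAAA, the latter its own reverse complement), the CCAAT box bound by NF-Y (CCAAT), and an E2F site (TTTGGCGC, TTTGCCGC, TTTCGCGC or TTTCCCGC, where a match on each strand can overlap). A CHR stood in 20 of 23 mitosis promoters (87.0%), 1 of 8 S phase promoters (12.5%) and 25.3% of all 27457 promoters. A CCAAT box stood in 18 of 23 mitosis promoters (78.3%), 6 of 8 S phase promoters (75%) and 34.3% of all. An E2F site stood in 5 of 8 S phase promoters (62.5%), 1 of 23 mitosis promoters (4.35%) and 1.81% of all. CHR and CCAAT stood together in 17 of 23 mitosis promoters (73.9%), 0 of 8 S phase promoters and 8.88% of all. Of the 6 G1 regulators with an entry, 2 had a CHR, 3 a CCAAT box and 0 an E2F site. The promoters counted include those of Mcm3, Mki67, Anln, Cenpe and Cenpf, which the arrays did not measure under the rule. For some genes, Kif11 and Aurka among them, the 250 bases lie inside a longer gene model, and the shares use all 250 bases for every gene. These are matches of letters and not measured binding sites.

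Promoters of 4 mitosis genes and 2 S phase genes are printed to show this contrast, 5′ to 3′ along the gene, with every match to the 3 motifs in capitals. Cdk1, the kinase that starts mitosis, was the mitosis gene with an E2F site (TTTCGCGC, starting 133 bases before the start) beside a CHR at 72 bases and CCAAT boxes at 210, 81 and 49 bases, here read as ATTGG. Its sequence stops 41 bases short of the start, where a longer gene model begins, and the bases left out hold another CHR. Ccnb1 encodes cyclin B1, Cdc20 the activator of the anaphase-promoting complex and Plk1 a mitotic kinase, and each had a CHR near a CCAAT box. Mcm5 and Mcm6 encode parts of the replicative helicase, and each had E2F letters and CCAAT boxes but no CHR. The windows were chr20:19265043-19265251 on the plus strand for Cdk1, chr2:33655226-33655475 on the minus strand for Ccnb1, chr5:137255800-137256049 on the minus strand for Cdc20, chr1:186147408-186147657 on the plus strand for Plk1, chr19:13488563-13488812 on the plus strand for Mcm5 and chr13:42404353-42404602 on the minus strand for Mcm6.
Cdk1: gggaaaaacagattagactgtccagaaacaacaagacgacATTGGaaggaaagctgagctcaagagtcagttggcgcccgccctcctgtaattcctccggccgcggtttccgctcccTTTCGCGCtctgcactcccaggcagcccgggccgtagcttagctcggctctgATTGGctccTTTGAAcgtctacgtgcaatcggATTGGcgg
Ccnb1: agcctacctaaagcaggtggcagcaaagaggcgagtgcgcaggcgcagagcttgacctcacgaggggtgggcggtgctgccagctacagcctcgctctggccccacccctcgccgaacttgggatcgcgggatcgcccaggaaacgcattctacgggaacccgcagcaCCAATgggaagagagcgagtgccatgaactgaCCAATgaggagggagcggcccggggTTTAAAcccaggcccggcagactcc
Cdc20: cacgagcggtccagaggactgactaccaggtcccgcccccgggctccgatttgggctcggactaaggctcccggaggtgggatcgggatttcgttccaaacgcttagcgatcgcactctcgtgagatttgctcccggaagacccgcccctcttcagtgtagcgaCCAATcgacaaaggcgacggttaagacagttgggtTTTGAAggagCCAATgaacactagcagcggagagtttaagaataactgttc
Plk1: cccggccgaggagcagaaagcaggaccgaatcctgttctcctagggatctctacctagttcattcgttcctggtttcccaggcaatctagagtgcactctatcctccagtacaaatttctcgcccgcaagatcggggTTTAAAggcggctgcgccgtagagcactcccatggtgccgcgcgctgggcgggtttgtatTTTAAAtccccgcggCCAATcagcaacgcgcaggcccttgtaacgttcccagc
Mcm5: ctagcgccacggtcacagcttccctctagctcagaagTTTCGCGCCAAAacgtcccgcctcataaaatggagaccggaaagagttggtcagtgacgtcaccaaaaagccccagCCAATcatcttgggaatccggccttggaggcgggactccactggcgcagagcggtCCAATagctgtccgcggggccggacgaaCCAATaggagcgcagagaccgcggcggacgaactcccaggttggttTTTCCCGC
Mcm6: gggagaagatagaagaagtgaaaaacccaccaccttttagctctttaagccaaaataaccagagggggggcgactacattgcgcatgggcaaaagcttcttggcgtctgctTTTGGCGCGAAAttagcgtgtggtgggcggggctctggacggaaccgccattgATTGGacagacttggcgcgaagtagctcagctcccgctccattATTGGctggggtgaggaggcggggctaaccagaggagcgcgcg

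All values are log2 values that the authors centred on the median of each probe set over the 23 hearts, so 0 is the middle heart and no value gives how strongly a gene was expressed. Array medians lay between -0.015 and 0.019 and the SD over probe sets between 0.16 and 0.393, widest in combination heart 1. Control heart 1 stood apart before any comparison: the mean of 18 thymocyte markers was 2.94 there (17 of 18 above 1, Cd3g at 5.73) and between -0.10 and 0.08 in the other hearts. Its mean of 12 lung epithelium markers was 2.47 (8 of 12 above 1, Scgb1a1 at 6.26), and HF diet heart 4 and diabetes heart 3 followed at 0.554 and 0.428, with Scgb1a1 at 4.22 and 3.92. Because each probe set was centred, whether the defining markers of the heart were present cannot be read. The mean of 15 cardiomyocyte markers lay between -0.279 in combination heart 1 and 0.09. The mean of 15 erythroid markers was -0.153 ± 0.321 (SD) for control hearts, 0.195 ± 0.278 for diabetes, -0.071 ± 0.153 for HF diet and 0.248 ± 0.551 for combination, with combination heart 2 at 1.11. In whole hearts, more or fewer dividing cells and more or less RNA per cell cannot be told apart.

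The cell cycle genes varied far more between single hearts than between the exposure groups. The SD over the 23 hearts had a median of 0.278 for mitosis genes, 0.272 for S phase genes and 0.259 for G1 regulators, against 0.173 for all named genes. The share of that variance that lay between the 4 groups had a median of 13.1% for mitosis genes, 5.71% for S phase genes and 8.79% for G1 regulators, against 13.0% for all named genes. The spread was led by Cdkn1a, the inhibitor p21 that halts the cycle, at an SD of 0.565, and Cdc20 at 0.553. At the other end were Cdkn1b, which encodes the inhibitor p27, at 0.121 and Ccna1, a cyclin A better known from germ cells, at 0.138.

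**Figure D1:**
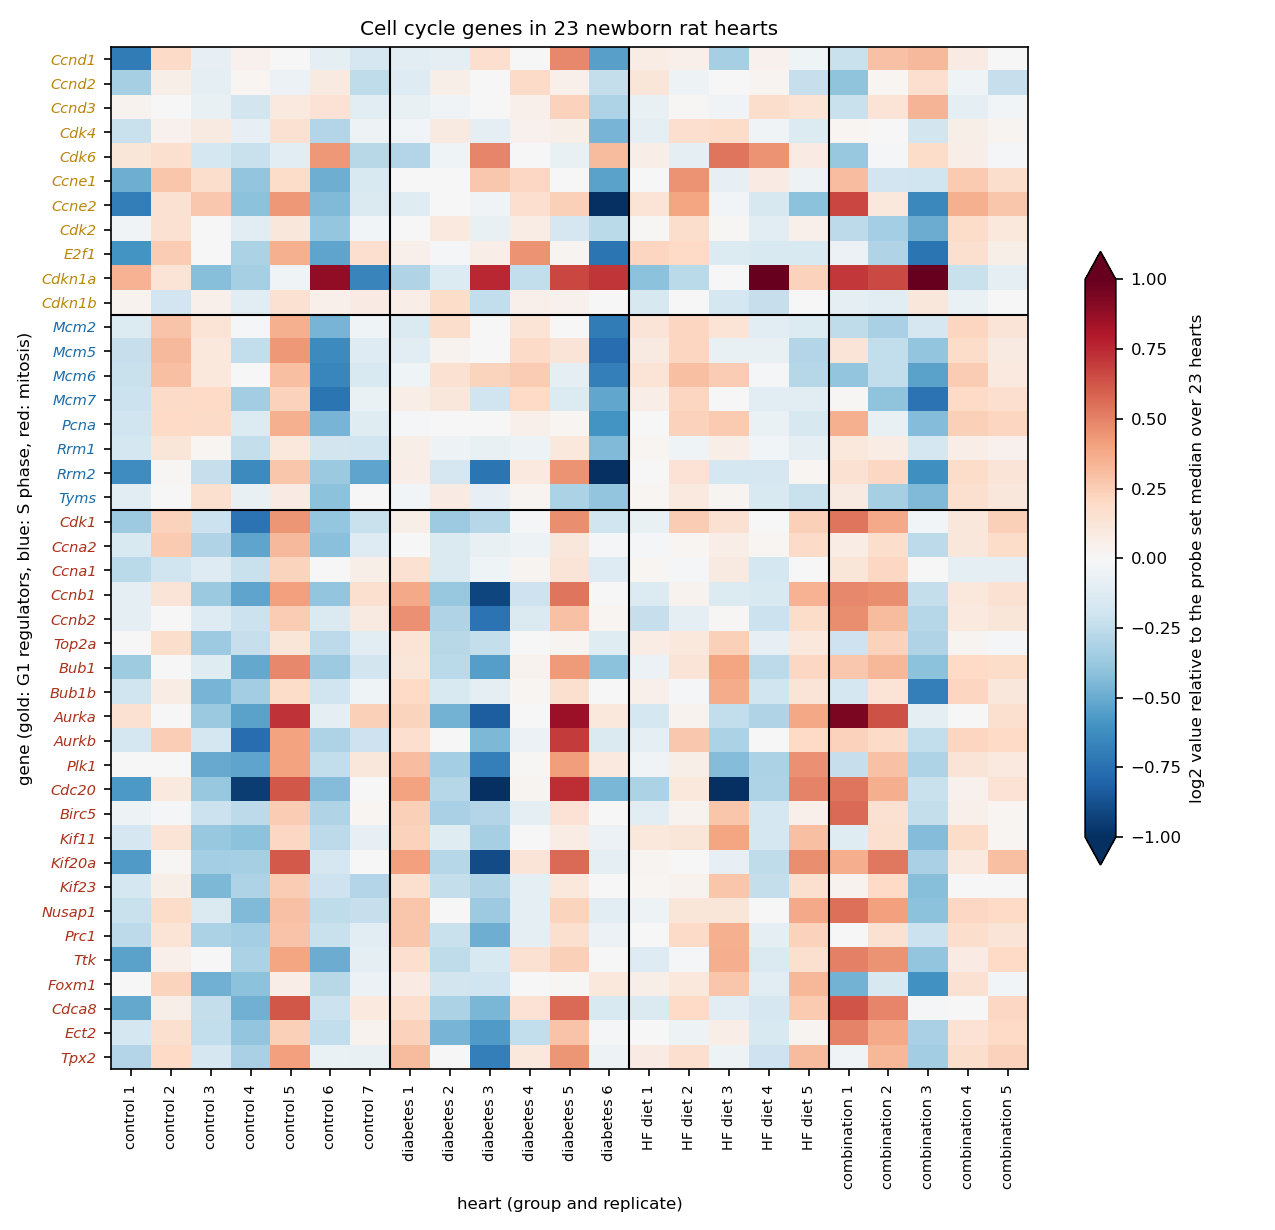
Log2 values of the 42 measured genes (rows, by phase) in the 23 hearts (columns, by group), relative to the median of each probe set and with colours ending at -1 and 1. Whole blocks of S phase genes (diabetes 6, control 6, combination 3) or mitosis genes (diabetes 3, control 4, control 5) shift together within a heart.

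Mitosis genes moved as 1 block. In control heart 5 all 23 stood above 0, from 0.063 for Foxm1 to 0.720 for Aurka, with a mean of 0.357, and in diabetes heart 5 all 23 did so, with a mean of 0.333. In control heart 4 all 23 stood below 0, with a mean of -0.440, and in diabetes heart 3 all 23, from -1.43 for Cdc20 to -0.04 for Ccna1, with a mean of -0.481. Hearts with every mitosis gene raised and hearts with every one lowered were thus found inside 1 group, both in control and in diabetes. The cardiomyocyte marker mean was -0.094 in control 5 and -0.151 in diabetes 5, and 0.084 in control 4 and 0.054 in diabetes 3. Control 3 and combination 3 went the other way, at -0.114 and -0.042 with mitosis means of -0.283 and -0.296. The part of these markers in the mitosis values was not tested. Combination heart 1 broke the block, since Aurka, a spindle kinase, stood at 0.94 and Foxm1 at -0.47 in the same heart. HF diet heart 3 broke it too, with Kif11 at 0.396 and Cdc20 at -1.065, and 15 mitosis genes above 0 and 8 below.

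S phase genes moved as another block. Most of their low hearts were low for mitosis genes too, but the lowest heart for S phase was not the lowest for mitosis. All 8 stood below 0 in diabetes heart 6 (mean -0.657, Rrm2 at -1.15), control heart 6 (-0.489), combination heart 3 (-0.437), control heart 1 (-0.238) and HF diet heart 4 (-0.089). Diabetes heart 6, the lowest for S phase, was close to the middle for mitosis genes (mean -0.074, 4 above 0 and 15 below). Diabetes heart 3, the lowest for mitosis, had a mean of -0.106 over the S phase genes, 3 above 0 and 4 below. Combination heart 3 (mitosis mean -0.296), control heart 6 (-0.259), control heart 1 (-0.221) and HF diet heart 4 (-0.162) were low for both. So was control heart 4, with a mean of -0.440 over mitosis genes and -0.210 over S phase genes. Combination heart 2 and HF diet heart 5 were raised for mitosis genes, at 0.297 and 0.244, with S phase means of -0.169 and -0.162.

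**Figure D2:**
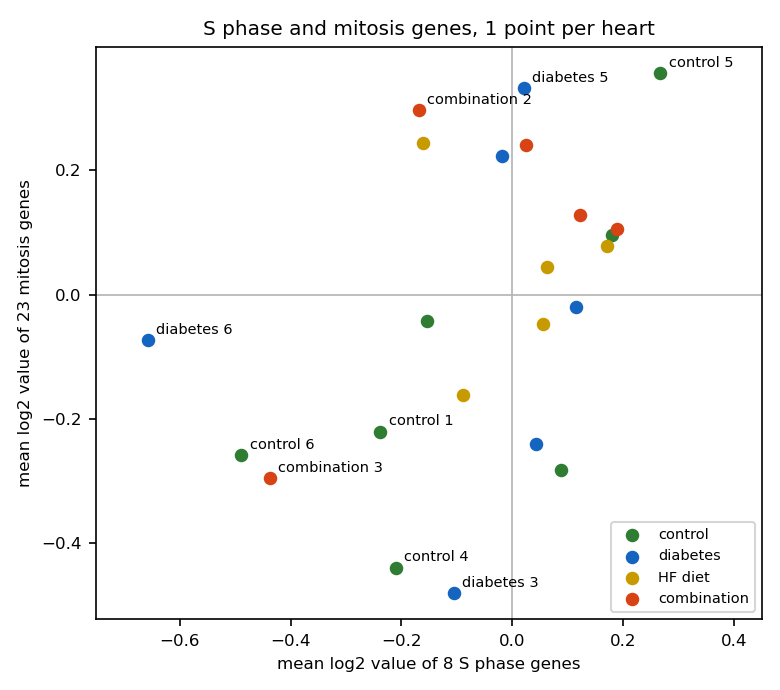
Mean log2 value of the 8 S phase genes (horizontal) and of the 23 mitosis genes (vertical) in each of the 23 hearts, coloured by group. Diabetes 6 lies far to the left at -0.657 with a mitosis mean of -0.074, and the groups are spread through each other.

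The same picture held gene by gene. After the group means were taken away, the 28 pairs of S phase genes had a mean correlation over hearts of 0.764 (lowest 0.408) and the 253 pairs of mitosis genes one of 0.71 (lowest 0.109), and every pair was positive. Pairs of an S phase and a mitosis gene averaged 0.322, pairs of G1 regulators 0.133, and all pairs of named genes 0.005. All these values share the 23 arrays and their normalization, and they are given as a description. Without control 1, combination 1, diabetes 6 or combination 3 the S phase mean lay between 0.692 and 0.787 and the mitosis mean between 0.684 and 0.74. The closest pairs were Mcm2 and Mcm6, parts of 1 helicase (r 0.937), Ccnb1 and Ccnb2, the B cyclins (0.936), and Kif20a and Tpx2, which act on the spindle (0.933).

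G1 regulators did not form a block but split by gene. Ccne1 and Ccne2, the E cyclins, E2f1, Cdk2 and Cdk4 followed the S phase genes, with mean correlations to them of 0.764, 0.806, 0.802, 0.726 and 0.805. Ccnd1 and Ccnd2, the D cyclins that answer growth signals, were most like each other (r 0.688) and had mean correlations to S phase genes of 0.251 and 0.08. Cdkn1a ran opposite to S phase (mean r -0.543, -0.773 with Tyms, the enzyme that makes thymidylate) and was most like Cdk6 (0.622). Cdk6 too was opposite to S phase (-0.372) and mitosis genes (-0.339). Of the mitosis genes Foxm1, the transcription factor of the mitotic programme, was among the loosest (mean r to the others 0.558), with Ccna1 below it at 0.515.

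Heart by heart, the opposition of Cdkn1a held in part. It stood at 1.42 in combination heart 3 and 0.713 in diabetes heart 6, both low for S phase, and at 0.89 in control heart 6, but also at 1.11 in HF diet heart 4, where the S phase mean was -0.089. Diabetes heart 5 (0.666) and combination heart 1 (0.707) were high for Cdkn1a with S phase means of 0.021 and 0.025, and control heart 7 was low for it (-0.657) with an S phase mean of -0.154. Its combination values were 0.707, 0.66, 1.42, -0.222 and -0.086, and its HF diet values -0.409, -0.267, 0, 1.11 and 0.234. Control hearts ran from -0.657 through a median of -0.035 to 0.89, and diabetes hearts from -0.303 through 0.264 to 0.755. All 4 groups overlapped. Combination minus control was 0.51 (SE 0.31), the widest difference of any measured member in that comparison, and it did not pass the test (limma, p = 0.115, adjusted p = 0.561; exact permutation p = 0.173).

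Between combination and control hearts, the leading comparison of the study, the differences of mitosis genes were small and mostly positive, and 1 member passed the threshold. A gene was called where its log2 difference went beyond 0.32 in size, the fold minimum of the methods, with an unadjusted limma p under 0.05, and no member in any comparison had an adjusted p under 0.05. Cdk1 was called higher. That is 1 of 42 members, near the share over all features, of which 2.11% were called higher and 1.23% lower. The log2 difference was positive for 22 of 23 mitosis genes, with a median of 0.19, for 4 of 8 S phase genes (median -0.01) and for 6 of 11 G1 regulators (median 0.04), against a median of 0.00 over all features. Genes of a block are not independent, so these counts stand for few separate observations. In the same comparison 13 of 15 erythroid markers had a positive difference (median 0.32), and 18 of 18 thymocyte and 12 of 12 lung markers a negative one (medians -0.41 and -0.34), with control heart 1 among the controls. The difference was negative for 10 of 11 fibroblast markers (median -0.15), 7 of 10 endothelium markers (median -0.07) and 11 of 15 cardiomyocyte markers (median -0.04). None of these markers of fibroblasts, endothelium or cardiomyocytes was called, and 3, 3 and 1 of them had an unadjusted limma p under 0.05. The part of these 3 lists in the values of the cell cycle genes was not tested.

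Cdk1 (probe set 10829761) read 0.537, 0.382, -0.024, 0.112 and 0.242 in the 5 combination hearts. In control hearts it ran from -0.736 in control 4 through a median of -0.223 to 0.445 in control 5, and in diabetes hearts from -0.36 through -0.105 to 0.465. The HF diet hearts read -0.075, 0.257, 0.153, 0 and 0.242. The combination hearts lay mostly above the controls, but control 5 exceeded 4 of them and the groups overlapped. The difference was 0.43 on the log2 scale (SE 0.16, 95% interval 0.09 to 0.77, a 1.35-fold change; limma p = 0.0159, Benjamini-Hochberg adjusted p = 0.497; exact permutation p = 0.0581). It was 0.40 and still called without control heart 1, and it lost the call at 0.36 without combination heart 1, at 0.37 with the erythroid marker mean as a covariate and at 0.38 with hearts of 1 code stem averaged.

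Nusap1, which binds the spindle, Ttk, the checkpoint kinase Mps1, and Cdca8, a part of the chromosomal passenger complex, came next. Nusap1 (probe set 10838843) read 0.549, 0.407, -0.408, 0.206 and 0.2 in combination hearts and from -0.443 through -0.226 to 0.295 in control hearts. Its difference of 0.31 (SE 0.15, limma p = 0.0485, exact permutation p = 0.129) fell short of the fold minimum. For Ttk it was 0.31 (SE 0.16) and for Cdca8 0.36 (SE 0.18), with exact permutation p-values of 0.148 and 0.116, and neither was called. In each of these genes combination heart 3 was the lowest of its group and combination heart 1 the highest. At the other end, Foxm1 was the mitosis gene with a negative difference, -0.09 (SE 0.13, 95% interval -0.35 to 0.18), and Top2a, the topoisomerase of chromosome condensation, stood at 0.04 (SE 0.10).

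By role, the other mitosis genes described next had positive differences, and none was called. Among the cyclins, combination minus control was 0.29 (SE 0.21) for Ccnb1, 0.18 (SE 0.16) for Ccnb2 and 0.19 (SE 0.12) for Ccna2. The mitotic kinases Aurka, Aurkb and Plk1 stood at 0.31 (SE 0.24), 0.26 (SE 0.18) and 0.10 (SE 0.19). Of the checkpoint genes Bub1 stood at 0.27 (SE 0.17) and Bub1b at 0.06 (SE 0.14), and Cdc20, which the checkpoint holds back, at 0.41 (SE 0.31, 95% interval -0.23 to 1.04). The motor proteins Kif20a, Kif23 and Kif11 stood at 0.30 (SE 0.22), 0.12 (SE 0.12) and 0.10 (SE 0.13). Ect2 and Prc1, which build the midzone and the furrow of the dividing cell, stood at 0.27 (SE 0.15) and 0.17 (SE 0.13). The SE exceeded 0.2 in genes that swung widely between hearts, among them Cdc20, Aurka, Kif20a and Ccnb1, whose ranges over the 23 hearts were 2.17, 1.77, 1.51 and 1.45 on the log2 scale.

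**Figure D3:**
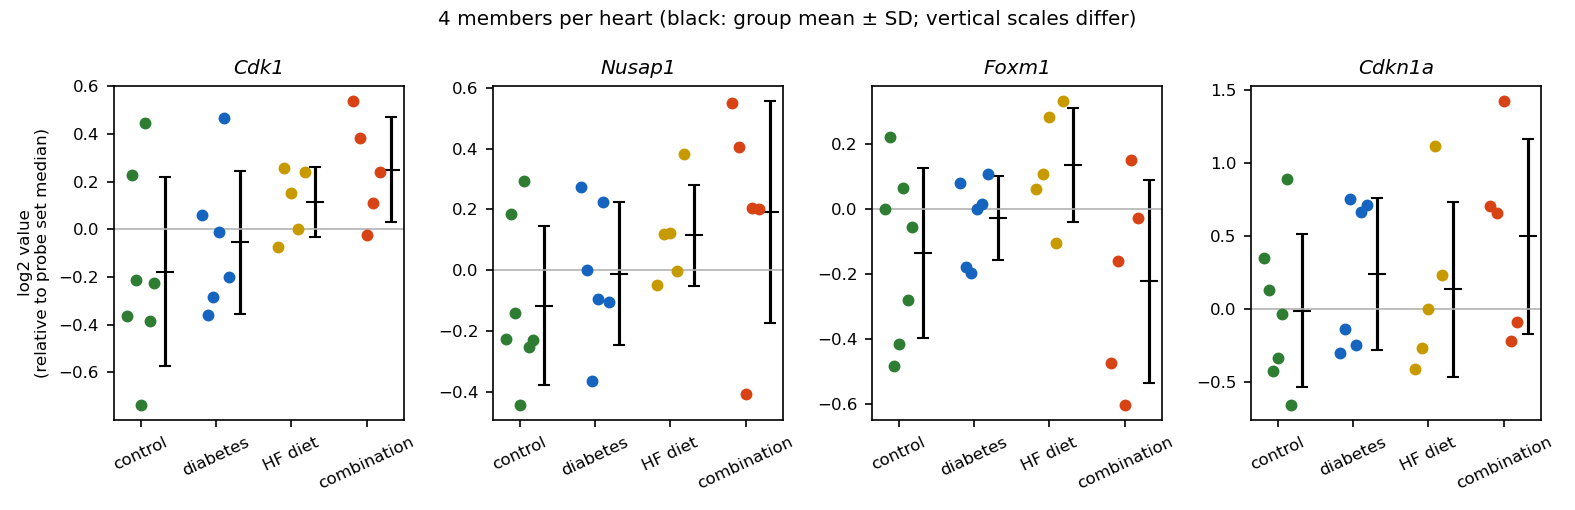
Log2 values of Cdk1, Nusap1, Foxm1 and Cdkn1a in each heart by group, with the group mean ± SD in black beside the points (n = 7, 6, 5 and 5). The groups overlap in each panel, and Cdk1 in combination hearts runs from -0.024 to 0.537.

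S phase genes and G1 regulators showed no called difference there. Rrm2, a subunit of ribonucleotide reductase, ran from -0.61 to 0.207 in combination hearts and from -0.636 to 0.28 in control hearts. Its difference was 0.31 (SE 0.22, exact permutation p = 0.154), and those of Rrm1, the other subunit, and Mcm2 were 0.10 (SE 0.09) and -0.10 (SE 0.15), with exact permutation p = 0.218 and 0.525. Ccnd1 differed by 0.21 (SE 0.15, exact permutation p = 0.201) and Ccne1 by 0.20 (SE 0.16, exact permutation p = 0.282). The helicase genes Mcm2, Mcm5, Mcm6 and Mcm7 had differences from -0.12 (Mcm6, SE 0.18) to 0.01 (Mcm5, SE 0.17), and Pcna, the sliding clamp of DNA polymerase, stood at 0.08 (SE 0.15). Within groups these genes spanned more than that: Mcm5 ran from -0.634 to 0.437 in control hearts, from -0.764 to 0.189 in diabetes hearts, from -0.296 to 0.211 in HF diet hearts and from -0.394 to 0.187 in combination hearts. The interval of Mcm5, from -0.35 to 0.36, still reaches beyond the fold minimum in both directions.

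The count of called members in combination minus control rested on single hearts. It was 7 without combination heart 3 (Bub1, Cdca8, Cdk1, Ect2, Nusap1, Rrm2 and Ttk) and 6 without control heart 5 (Bub1, Cdca8, Cdk1, Kif20a, Nusap1 and Ttk), the low and the high heart of the 2 groups. Leaving out combination heart 1 gave 0 and combination heart 4 gave 3, while each of control 2, control 6 and diabetes 5 gave 2. The share of all features called was not kept for these refits. Whether it moved in the same way cannot be read from these counts. The median of the mitosis genes stayed positive without any 1 of the 12 control and combination hearts, from 0.15 without control 4 to 0.29 without combination 3, and was 0.20 without control heart 1. For combination hearts 1, 2, 4 and 5, the other heart of the same code stem stayed in. Medians without a shared stem were not computed. The median of the S phase genes had no settled sign, running from -0.09 without control 6 to 0.10 without combination 3.

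Among 166 measured genes of 3 wider cell cycle lists, 7 were higher in combination than in control hearts and 0 lower, beside 2.11% of all features higher and 1.23% lower. They were 6 of 74 genes of mitosis and cytokinesis, 1 of 34 genes of G1 control and 0 of 58 genes of S phase and replication. The mitosis genes were Pbk (0.56, SE 0.26), Ube2t (0.41), Cdkn3 (0.40, SE 0.14), Parpbp (0.40), Pimreg (0.39) and Nuf2, a kinetochore protein (0.34). Cdkn3 encodes a phosphatase that acts on Cdk proteins and Pbk a mitotic kinase. Gadd45g, a stress gene that binds p21 and Cdk1, differed by 0.71 (SE 0.20, adjusted p = 0.497 by limma), the smallest p of the lists. Its combination hearts ran from 0.284 to 0.881 and its control hearts from -0.735 to 0.533, so they overlapped.

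**Figure D4:**
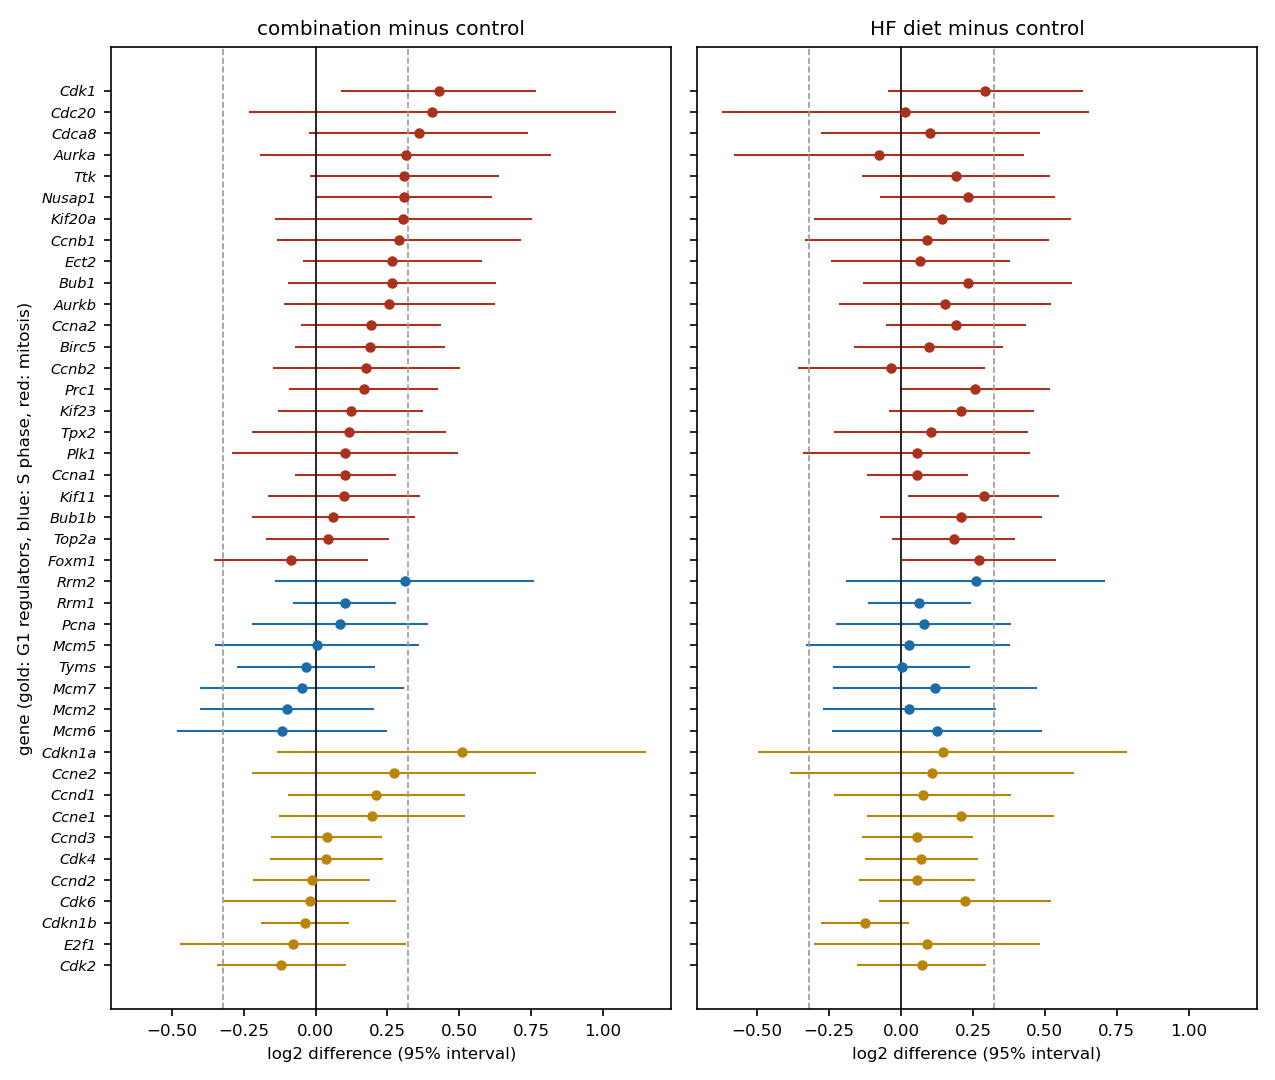
Log2 difference and 95% interval of the 42 members for combination minus control (left) and HF diet minus control (right), with dashed lines at the fold minimum. In the left panel 22 of 23 mitosis genes lie right of 0, and Cdk1 passes the threshold at 0.43.

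Between HF diet and control hearts the differences were small and mostly positive in all 3 phases. No member was called, where 0.702% of features were higher and 0.254% lower. The difference was positive for 21 of 23 mitosis genes (median 0.15), 8 of 8 S phase genes (0.07) and 10 of 11 G1 regulators (0.08), against 0.01 over all features. Kif11, the motor that separates the spindle poles, and Foxm1 had an unadjusted p under 0.05 below the fold. Kif11 read 0.107, 0.12, 0.396, -0.175 and 0.302 in HF diet hearts and from -0.414 through -0.167 to 0.205 in controls, which overlapped (0.29, SE 0.13, exact permutation p = 0.0694). Without control heart 5 the count was 4 (Bub1, Cdk1, Kif11 and Prc1), without control 2 it was 3 (Cdk1, Foxm1 and Kif11), and without HF diet heart 4, the heart of that group with raised lung markers, it was 2 (Foxm1 and Kif11). The share of all features called was not kept for these refits. Both comparisons, of HF diet and of combination with control, use the same control hearts.

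Diabetes hearts gave no call against controls among the 42 members, beside 0.229% of features higher and 0.0811% lower. The median difference was 0.08 for mitosis genes (19 of 23 positive), -0.015 for S phase genes (4 of 8) and 0.07 for G1 regulators (7 of 11). Over all features it was 0.0, and no member had an unadjusted p under 0.05. Bub1b, a spindle checkpoint kinase, had the smallest p (difference 0.17, SE 0.13, 95% interval -0.10 to 0.43, exact permutation p = 0.152). That interval reaches beyond the fold minimum, so a change of that size was not excluded. Of the wider lists 0 of 166 genes were called, and 1 had an unadjusted p under 0.05.

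**Figure D5:**
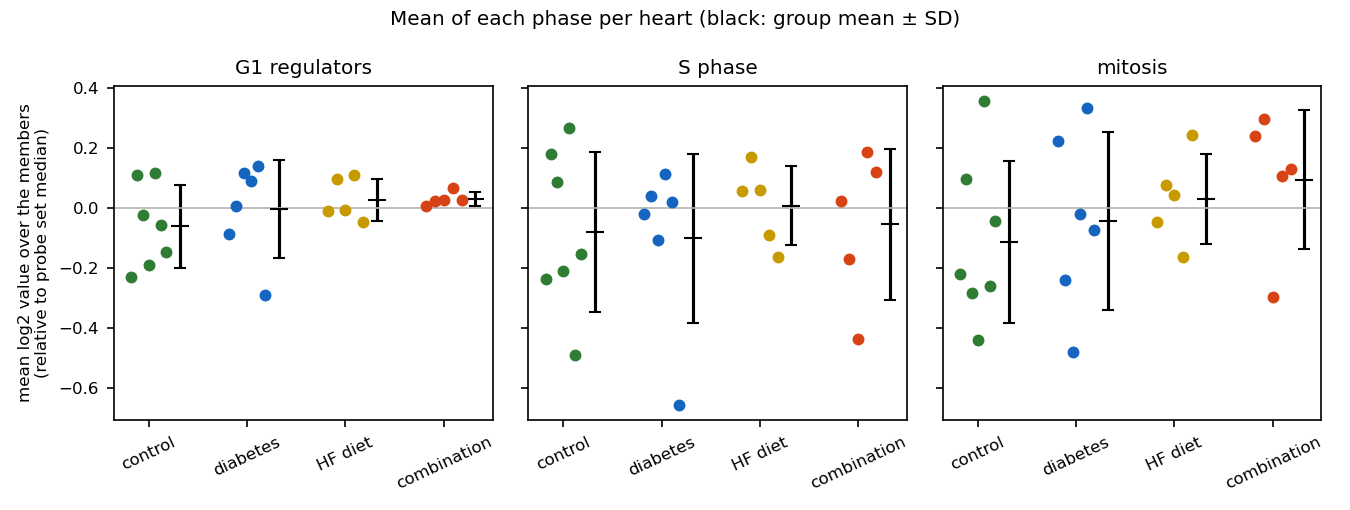
Mean log2 value of G1 regulators, S phase genes and mitosis genes in each heart, by group, with the group mean ± SD in black (n = 7, 6, 5 and 5). The mitosis means of the groups run from -0.113 in control to 0.095 in combination hearts, with SDs of 0.151 to 0.299.

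The group means of the mitosis block fell in the order control (-0.113 ± 0.270, SD, n = 7), diabetes (-0.043 ± 0.299, n = 6), HF diet (0.031 ± 0.151, n = 5) and combination (0.095 ± 0.233, n = 5). Each step between neighbours was smaller than the SD within either group. For S phase the means were -0.080 ± 0.268, -0.100 ± 0.282, 0.008 ± 0.132 and -0.054 ± 0.253 in the same order of groups, and for G1 regulators -0.060 ± 0.139, -0.003 ± 0.164, 0.028 ± 0.070 and 0.030 ± 0.022. The G1 mean averages genes that drive the cycle with inhibitors, so opposite values cancel in it. In combination heart 3 it was 0.027, with Cdkn1a at 1.42 and E2f1 at -0.728. No group stood outside the spread of another.

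With HF diet added to diabetes, that is combination minus diabetes, no member was called, beside 1.65% of features higher and 1.4% lower. Mitosis genes had a median difference of 0.14 (20 of 23 positive), against 0.002 over all features. Ect2, which places the cleavage furrow, differed by 0.31 (SE 0.16, exact permutation p = 0.162) and Cdk1 by 0.30 (SE 0.17, exact permutation p = 0.0931). Without diabetes heart 5, whose mitosis genes were all raised, 4 members were called (Aurka, Cdca8, Cdk1 and Ect2), without combination heart 3 it was 3 (Ccne2, Ect2 and Nusap1), and without diabetes heart 1 it was 1 (Ect2). The share of all features called was not kept for these refits. Of the 166 genes of the wider lists 3 were called higher and 1 lower. Gadd45g (0.50), Ube2t (0.42) and Slbp, which binds histone mRNA (0.34), were higher and Meis1 (-0.33), known for restraining the cardiomyocyte cycle in mice, was lower.

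With diabetes added to HF diet, that is combination minus HF diet, Foxm1 was called lower. That is 1 of 42 members, near the share over all features, of which 2.83% were called higher and 2.92% lower. Foxm1 (probe set 10859047) read -0.472, -0.161, -0.602, 0.149 and -0.027 in combination hearts and 0.06, 0.106, 0.28, -0.105 and 0.33 in HF diet hearts. Control hearts ran from -0.483 through -0.057 to 0.221, and diabetes hearts from -0.196 through 0.007 to 0.106. Combination hearts were the lower of the pair but combination 4 stood above 3 of the HF diet hearts. The difference was -0.36 (SE 0.14, 95% interval -0.65 to -0.07, limma p = 0.0177, adjusted p = 0.369; exact permutation p = 0.0635). It lost the call without combination heart 1 (-0.29), combination heart 3 (-0.26), HF diet heart 3 (-0.32) or HF diet heart 5 (-0.31). The call was also lost with quantile normalisation (-0.27), with array weights (-0.22), with the erythroid marker mean as a covariate (-0.32, just short of the fold minimum) and by the methods' t-test (-0.36). Cell type markers moved in this comparison too. Of 15 erythroid markers 3 were called higher (12 positive, median 0.27), of 15 cardiomyocyte markers 2 were called lower (11 negative, median -0.06), and 5 of 5 epicardium markers had a positive difference (median 0.42), 1 of them called. Of 11 fibroblast markers 6 had a negative difference (median -0.21) and 0 were called, with 5 at an unadjusted limma p under 0.05. Of 10 endothelium markers 7 had a negative difference (median -0.107) and 1 was called lower. Of 11 macrophage markers 8 had a positive difference (median 0.164) and 1 was called higher. Apart from the erythroid covariate, the part of these markers in the Foxm1 value was not tested.

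The other mitosis genes lay on both sides of 0 in the same comparison. Those with a negative difference beside Foxm1 were Kif11 (-0.19, SE 0.14), Bub1b (-0.15, SE 0.15), Top2a (-0.14, SE 0.11), Prc1 (-0.09, SE 0.14) and Kif23 (-0.09, SE 0.13), which had correlations with Foxm1 over the hearts of 0.874, 0.867, 0.821, 0.748 and 0.737. The difference was positive for 17 of 23 mitosis genes, with a median of 0.08 over the 23. Among the positive ones were Ccna2 (0.001, SE 0.128) and Plk1 (0.05, SE 0.205), with correlations to Foxm1 of 0.755 and 0.688. Aurka, whose correlation with Foxm1 was 0.384, stood at 0.39 (SE 0.26, exact permutation p = 0.151). The correlations and the differences come from the same hearts. In combination heart 1, where Foxm1 was -0.472, Cdk1 was 0.537 and Cdc20 0.536, and that heart had the widest spread over probe sets of the 23 arrays. Without combination heart 3 Foxm1 was not called and Ect2 was. Of the 166 genes of the wider lists 3 were called higher and 3 lower, beside 2.83% and 2.92% of all features. The lower ones were Cit, a kinase of cytokinesis (-0.40), E2f8, an E2F repressor (-0.39), and Lmnb1, the lamin B1 gene (-0.35). The higher ones were Gadd45g (0.56), Lin37, a part of the MuvB complex (0.38), and Cdkn3 (0.34).

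Diabetes and HF diet hearts, compared with each other, gave no called member, beside 0.229% of features higher and 0.208% lower. The difference was negative for 8 of 8 S phase genes (median -0.10) and 18 of 23 mitosis genes (median -0.07), against 15941 of 28366 features (median -0.013). Genes of a block are not independent, and diabetes heart 6 was the lowest of its group for S phase. Cdkn1b had the smallest p (difference 0.13, SE 0.08, exact permutation p = 0.126). Ccng2, a cyclin of arrested cells, was the 1 gene called of the 166 of the wider lists, at 0.39 (SE 0.19).

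The interaction asked whether the combination departed from the sum of the single exposures. It was called for Foxm1, below that sum. That is 1 of 42 members, near the share over all features, of which 1.77% were called above the sum and 2.61% below. The term was -0.46 (SE 0.19, 95% interval -0.85 to -0.08, limma adjusted p = 0.675). It was -0.49 and still called without control heart 1, and no longer called without combination heart 3 (-0.37), with quantile normalisation (-0.36) or with array weights (-0.29). For Cdk1 and the other members no departure was called, and 9 of 23 mitosis genes and 4 of 8 S phase genes had a positive term. Of the 166 genes of the wider lists 2 were called above the sum and 3 below. Cit (-0.50), E2f8 (-0.46) and Lmnb1 (-0.40) lay below the sum, and Slbp (0.49) and Rpa3, a part of the single-strand binding protein (0.48), above it.

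In none of the 6 pairwise comparisons were 2 groups free of overlap in any member. Of all named genes 0.186% were free of overlap between combination and control, 0.0207% between diabetes and control, 0.131% between HF diet and control, 0.269% between combination and diabetes, 1.68% between combination and HF diet and 0.248% between diabetes and HF diet.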

How the data were processed

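Total RNA of 23 whole hearts was hybridised to Affymetrix Rat Gene 1.0 ST arrays. The authors read probe intensities with the GeneChip software and normalised them in GeneSpring GX. The deposited log2 values of 29170 probe sets were centred on the median of each probe set over the 23 arrays, so no filter on dim probe sets could be set. For the normalisation algorithm and the limits of the quality filter, nothing is given in the sources used here. Precision is limited by the number of arrays.

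Of the probe sets, 15310 had 1 gene symbol, 323 had several and 13537 had none. Identifiers were matched to the RefSeq gene table for 15279, and 0 symbols changed. Probe sets of 1 symbol were averaged per heart (14506 genes) and the other probe sets kept singly, giving 28366 features. Groups came from the exposure labels. All 23 hearts entered 1 linear model with the 4 group means as its terms (limma 3.58.1, lmFit and eBayes, R 4.3.3), with Benjamini-Hochberg adjustment over all features. Calls followed the methods, a fold beyond 1.25 with unadjusted p under 0.05. Welch's test, which the methods use, was an alternative, named the methods' t-test. Two-sided exact permutation tests of single members used the hearts of the 2 groups, with a smallest possible p of 0.00126 for 7 against 5 hearts and 0.00397 for 5 against 5. The fit was tested on simulated data. Tables used Python 3.11.15 and pandas 2.3.3.

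Alternatives were the probe set with the largest SD, quantile normalisation, array weights, hearts of 1 code stem averaged, erythroid or thymocyte markers as a covariate, the replicate block, fits on 2 groups and leaving out each heart. The members, the wider lists and the marker lists were chosen with earlier results of these data known. Full statistics were given for called members and, per phase, for the 3 with the smallest p in combination minus control; other members and wider genes are named where called or where they mark an end of a range. The wider lists named 216 genes, of which 166 were measured, and hold some older symbols. Promoter shares were described without a test.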

Additional observations from a re-analysis of the deposited data

Results flagged for a closer look

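Chance alone marks about 1 in 20 groups of values by the test of a single outlying heart (Dixon's critical value at 95%). Over 42 members and 4 groups, 168 groups of values were tested and 16 held such a heart. They were gathered in few hearts, and members of a block are not independent, so the 16 stand for fewer events.

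Diabetes heart 6 lay apart from the other 5 diabetes hearts at the low end in 8 genes of G1 and S phase. Its values were -0.467 for Cdk4, -0.533 for Ccne1, -1.138 for Ccne2, -0.701 for Mcm2, -0.764 for Mcm5, -0.681 for Mcm6, -0.599 for Pcna and -0.443 for Rrm1. No mitosis gene of that heart was so marked. Its erythroid marker mean was 0.464 and its lung marker mean 0.09, and the part of either in these values was not tested.

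Combination heart 3 lay apart at the low end in Cdk4 (-0.18), Rrm1 (-0.176), Rrm2 (-0.61), Ccna2 (-0.262), Bub1 (-0.41) and Aurkb (-0.25). Its erythroid marker mean was 0.367.

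Ccnd1 was marked in control heart 1, at -0.699, the heart with thymocyte and lung markers, and in HF diet heart 3, at -0.33.

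Foxm1 was marked because its interaction term was called, at -0.463, below the sum of the single exposures (limma adjusted p = 0.675). That is 1 of 42 members, near the 2.61% of all features called below the sum. The call was lost without combination heart 3, with quantile normalisation and with array weights.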

How the results depend on the processing

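The count of called members was 0 under every alternative run for diabetes minus control and for diabetes minus HF diet. For combination minus control (1, Cdk1) it became 2 with the replicate block (Cdca8 and Cdk1) and without the fold minimum (Cdk1 and Nusap1), and 0 with hearts of 1 code stem averaged or with the erythroid covariate. Cdk1 then stood at 0.38 and 0.37. Leaving out single hearts gave counts of 0 to 7 there, 0 to 4 for HF diet minus control, 0 to 4 for combination minus diabetes, and 0 to 1 for combination minus HF diet and for the interaction. For HF diet minus control (0) the count was 2 (Foxm1 and Kif11) without the fold minimum and without the 3 hearts with the highest lung markers, an alternative chosen after seeing the data. For combination minus diabetes (0) it was 2 with array weights (Cdk1 and Ect2). For combination minus HF diet (1, Foxm1) it was 0 with quantile normalisation, array weights, the erythroid covariate and the methods' t-test. For the interaction (1, Foxm1) it was 0 with quantile normalisation and array weights, and 2 (Foxm1 and Kif11) without the lung marker hearts. Cdk1 ranged from 0.34 to 0.53 and Foxm1 (combination minus HF diet) from -0.45 to -0.26 when single hearts were left out, and no direction turned. The share of all features called was not kept for the refits, and the cause of these changes was not tested. The labels do not say that a replicate number pairs hearts, and the main fit used no pairing. Over 31 pairs of hearts with the same number, deviations from the group means correlated between -0.422 and 0.558, with 7 over 0.1. The highest was that of control 5 with diabetes 5, and these values cannot settle whether the numbers pair hearts. The replicate block changed no other count. Levels cannot be read from centred values, so signal over background does not weigh these results, and groups of 5 to 7 hearts limit them.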
